A study of Mus musculus with 18 samples.

Results

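Immune cells of the mouse colon were compared between St8sia6 knockout (KO) and heterozygous (het) mice by single-cell RNA sequencing. A cell was taken where its barcode held at least 1 Ptprc molecule (CD45, the pan-leukocyte surface phosphatase), no Epcam molecule (the epithelial adhesion protein), under 20% mitochondrial counts and at least 1000 molecules in all. These rules kept 9435 of 21687 colon barcodes, 3043 of them KO, 1898 het and 4494 wild type (WT). The KO and het cells thus made up 4941 of the 60272 cells of the series. Another 5977 colon barcodes met the other rules but held at least 1 Epcam molecule and were left out. Whether these were immune cells was not tested. The series has 18 samples of small intestine and colon, and 6 of them, a gene expression and a hashtag library from each of 3 runs, are the colon samples used here. Each run took the colon of 1 KO mouse, 1 het mouse and 2 St8sia6-sufficient WT mice, with lamina propria and epithelium combined, and CD45-bearing cells were enriched with beads after a density gradient. Cells of each genotype were stained with their own hashtag antibody, the genotypes were pooled, and transcripts were captured from their 5′ ends. Age, strain, the way the KO allele was made and the part of the gene it lacks were not given in the sources used here. KO, het and WT therefore name the hashtag with the highest median count in a set of cells, and each genotype has 3 libraries (n = 3), the 2 WT mice of a run being pooled.

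St8sia6 encodes a Golgi sialyltransferase that adds a sialic acid to a sialic acid already present on a glycan. Glycans of this kind are ligands of Siglecs, receptors on leukocytes that mostly carry inhibitory signals. The colon lamina propria holds T cells that make interleukin 17 or interferon gamma, B cells and IgA-secreting plasma cells, innate lymphocytes, macrophages and mast cells, and the epithelium holds cytotoxic intraepithelial T cells. The title of the study names gut inflammation and the Th1 and Th17 programs of T cells, so the genes of these programs were examined in T cells first.

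Cells were placed in classes by 3 transcripts: T with Cd3e (a chain of the T cell receptor complex), B with Ms4a1 (CD20), plasma with Mzb1 (a chaperone of antibody-secreting cells), each without the other two, mixed with at least 2 of them, and other with none. The T class fitted its name, with Cd3d in 91.29% and Trac in 60.39% of cells, and so did the B class, with Cd79a in 98.38%. The plasma class did not: Cd79a was found in 86.66% of its 607 cells and Sdc1, the syndecan that marks plasma cells, in 28.5%. Only 171 of them drew at least 20% of their molecules from immunoglobulin genes and Jchain, and of these 87.72% held Sdc1. The class is therefore called Mzb1 cells below, and its 171 immunoglobulin-rich cells are given apart. Mixed cells were mostly the 2777 with Ms4a1 and Mzb1, which are described next to the B class. Other cells held Il7r in 21.76%, Kit in 19.41%, Ncr1 in 12.55%, C1qa in 9.80% and, although Ms4a1 was at 0, Cd79a in 34.61%. Although Cd3e was at 0, they also held the T cell transcripts Trbc2 in 15.2%, Cd3g in 14.51%, Cd3d in 12.75% and Trac in 10.49%. Il7r and Kit were found in 33.73% and 14.53% of the T class as well.

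The sum of molecules per genotype and library ran from 3635947 to 13688061, and median molecules per gated cell from 3992 to 4655. The cells of a library shared no barcode between genotypes, and pairs of libraries shared 65 to 67. A cell's own hashtag was the highest in 98.74% to 100% of gated cells of each genotype and library. It made up at least 80% of the hashtag count in 62.7% to 98.15% of het cells but 19.94% to 32.67% of KO cells, and in 1.83% of KO against 67.94% of het cells of the B class. Free RNA was present in all classes: Jchain molecules were found in 85.26% of T and 86.41% of B cells, and Krt8, a keratin of the epithelium, in 41.93% and 44.21%. In 1 pool a ribosomal protein pseudogene set the cells apart: in library 2, 66.2% of WT cells held 3 or more molecules of Gm10260, against 1 of 1274 KO and 3 of 593 het cells.

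St8sia6 itself was rare and did not separate KO from het. Over all gated cells the KO libraries had 8.15, 11.0 and 10.7 CPM (molecules of the gene per 1e6 molecules of the sum, the total being scaled by TMM), the het libraries 11.3, 6.13 and 10.7, and the WT libraries 19.0, 17.1 and 15.7. The KO and het libraries overlapped, and all 3 WT libraries were above both. The log2 ratio of KO to het was 0.12 (SE 0.24), with an adjusted p of 0.947 by edgeR's quasi-likelihood test with Benjamini-Hochberg adjustment, which is meant by every adjusted p below unless another tool is named. A St8sia6 molecule was found in 137 of 3043 KO cells (4.502%), 83 of 1898 het cells (4.37%) and 334 of 4494 WT cells (7.43%). After each cell was thinned to 1000 molecules these shares were 0.953%, 0.843% and 1.54%. Because the deleted part of the gene was not given and reads come from 5′ ends, the molecules left in KO cells do not check the genotype.

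The immunoglobulin-rich Mzb1 cells held St8sia6 most often. A molecule was found in 27.78%, 28% and 40.62% of them in the KO libraries, 30%, 30% and 38.89% in the het libraries and 58.82%, 72.41% and 25% in the WT libraries, on 10 to 32 cells each and a median of about 19570 molecules per KO cell and 20450 per het cell. In T cells, with medians of 4870 and 5000 molecules, the share was 2.19% in KO and 1.03% in het. The log2 ratio in the immunoglobulin-rich cells was 0.45 (SE 0.466, adjusted p 0.791). Cells with Ms4a1 and Mzb1 had 6.76, 10.7 and 15.9 CPM in KO and 14.5, 12.6 and 33.4 CPM in het, a log2 ratio of -0.74 (SE 0.322) whose adjusted p was 0.695. In the B class the gene fell under the filter on low counts, with 11 molecules in KO and 5 in het. Of the genes that start within 5 Mb of St8sia6 on chromosome 2, 29 were tested over all cells and 0 passed edgeR's test, 1 of them at an unadjusted p under 0.05.

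**Figure D1:**
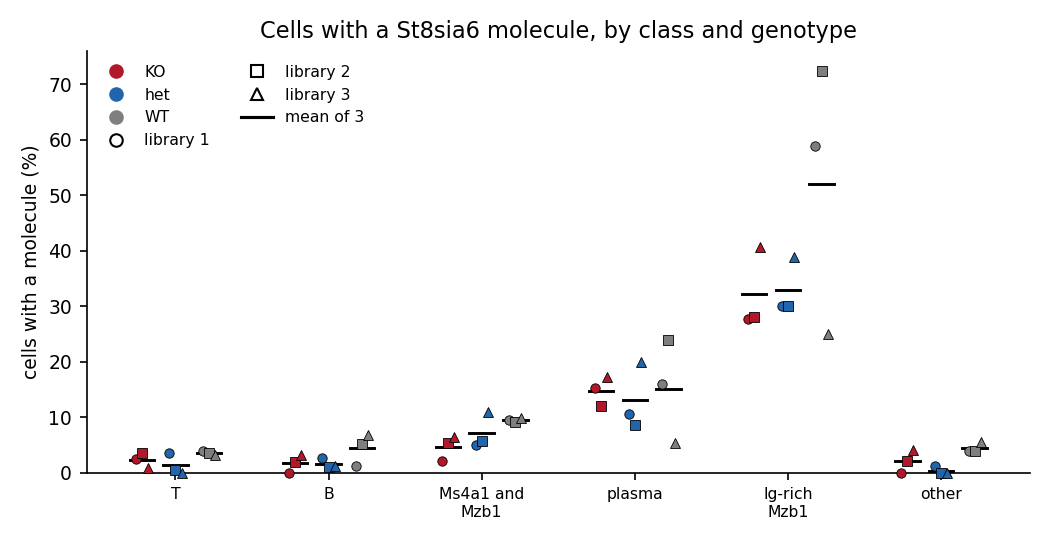
Share of cells with a St8sia6 molecule (%, y axis) in 6 classes (x axis), 1 point per genotype and library, shaped by library, with a bar at the mean of 3. The immunoglobulin-rich Mzb1 cells sit highest, at 25% to 72.41%, and KO and het points overlap in the T and immunoglobulin-rich cells.

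No class of gated cells differed between KO and het beyond the spread of all 3 libraries. For the T, B and mixed shares, library 1 went the other way from libraries 2 and 3. The Mzb1 share was lower in KO in each library, by as little as 5.89% against 5.9% in library 2. T cells were 37.5%, 24.5% and 31.8% of KO cells and 27.7%, 32.4% and 46.2% of het cells, or 31.2% ± 6.51 against 35.4% ± 9.6 (SD, n = 3). The B class took 15.6% ± 3.44 in KO and 15.3% ± 3.43 in het, Mzb1 cells 6.89% ± 1.0 and 7.17% ± 1.11, and mixed cells 32.8% ± 5.94 and 30.8% ± 7.36. Other cells, a mixture by the transcripts given above, were 14.5%, 10.7% and 15.2% in KO and 14.2%, 8.6% and 11.1% in het, higher in KO in 3 of 3 libraries. That difference, a log2 ratio of 0.28 (SE 0.155), did not pass the test (adjusted p 0.465 over the 5 classes), and the exact permutation test gave p = 0.4, where the smallest p that 3 against 3 allows is 0.1. The log2 ratios of the other 4 classes ran from -0.19 to 0.11, with adjusted p of 0.67 to 0.803. The T share was higher in KO in library 1 and higher in het in the other two. Without library 1 the T share was lower in KO (log2 ratio -0.48, SE 0.0749, adjusted p 0.0154), the B share higher (0.32, adjusted p 0.0236) and the share of other cells higher (0.40, adjusted p 0.0236), the spread then resting on 2 libraries per genotype. Where a cell had to carry at least 80% of its own hashtag, the filter that removes most KO cells of the B class, the log2 ratio of the T share was 0.65 and that of the B share -3.59.

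**Figure D2:**
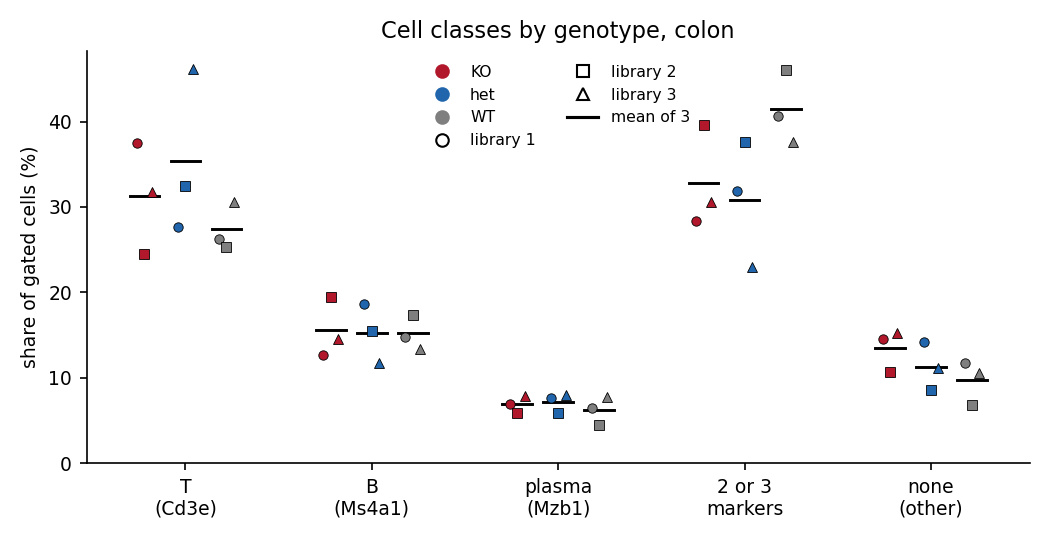
Share of gated cells (%, y axis) in 5 classes (x axis), 1 point per genotype and library with a bar at the mean of 3. In every class the KO and het points overlap, the widest spread being that of T cells, at 24.5% to 46.2%.

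T cells came first among the comparisons of genes, and 0 of 10567 genes passed edgeR's test (percent called 0), with 480 at an unadjusted p under 0.05 and 2 called by DESeq2. Without library 1 the count was 14. On simulated counts of the same size the test found 71% of genes changed by 1 on the log2 scale and 88% of those changed by 2. The simulated counts also gave 2 false calls. The genes below are therefore levels and differences that did not pass. Of the Th17 list, 18 of 19 genes were tested, 0 were called in either direction, and 15 had a log2 ratio above 0 (median 0.33), beside 49.4% and a median of -0.0034 over all genes tested in T cells. Il23r, the receptor chain for interleukin 23 that sustains Th17 cells, had 33.0, 40.9 and 30.6 CPM in KO and 12.6, 24.1 and 16.3 CPM in het. Its KO libraries were all above its het libraries, at a log2 ratio of 0.97 (SE 0.273, unadjusted p 0.00458, adjusted p 0.959). Il17a, the cytokine that gives the cells their name, had 115, 564 and 263 CPM in KO and 383, 103 and 121 CPM in het, so that the groups overlapped (log2 ratio 0.80, adjusted p 0.987). Il17f overlapped as well, with a log2 ratio of 0.27. Il22 had 4.49, 150 and 24.9 CPM in KO, so that 1 KO library carried its log2 ratio of 1.09. Il21 had a log2 ratio of 0.86 and was higher in KO in 3 of 3 libraries, at 12.0, 18.4 and 12.4 CPM against 6.79, 7.48 and 8.71 CPM. A molecule of Il17a was found in 4.78% ± 1.43 of KO and 2.97% ± 1.01 of het T cells after thinning to 1000 molecules (5.89% and 3.79% unthinned), and this share did not pass the test (adjusted p 0.765).

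The Th1 list stood near the middle of all genes, with 10 of its 20 tested genes above 0, 0 called and a median log2 ratio of 0.015. Ifng, which encodes interferon gamma, had 62.2, 91.1 and 190 CPM in KO and 104, 121 and 120 CPM in het (log2 ratio -0.02). Tbx21, the transcription factor of Th1 cells, had 150, 98.3 and 96.6 CPM in KO and 112, 126 and 121 CPM in het (log2 ratio -0.10). KO and het libraries overlapped for both.

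Regulatory and cytotoxic genes leaned to opposite sides, again with 0 called. Of the regulatory T cell list 10 of 15 tested genes were above 0 (median 0.15). Foxp3, its defining transcription factor, had 13.5, 28.1 and 22.5 CPM in KO and 5.82, 0 and 15.7 CPM in het, and a molecule was found in 1.79% ± 0.901 of KO and 0.614% ± 0.627 of het T cells after thinning (3.72% and 1.63% unthinned), which is a few cells per library. Of the cytotoxic list 3 of 17 genes were above 0 (median -0.20): Gzmb, a granule protease, had a log2 ratio of -0.41 and Klrd1, a receptor chain of natural killer and T cells, one of -0.43. Xcl1, a chemokine made by activated cytotoxic cells, had 243, 173 and 168 CPM in KO and 272, 273 and 314 CPM in het, all 3 KO libraries lying below all 3 het libraries (log2 ratio -0.58, SE 0.13, adjusted p 0.623). Cd8a was found in 25.5% ± 5.36 of KO and 35.5% ± 10.3 of het T cells after thinning (47.0% and 56.2% unthinned), and Cd4 in 7.64% ± 3.61 and 5.25% ± 1.20 (23.6% and 15.9% unthinned). Over 64 pairs of marker and class, 0 shares passed edgeR's test, and the Cd8a share was the 1 pair with an unadjusted p under 0.05 (log2 ratio -0.51, adjusted p 0.765). Without library 1 its log2 ratio was -0.88 and passed, with an adjusted p of 0.000255. DESeq2 was not run on these shares.

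The T gene nearest to the threshold was a connective tissue gene. Sparc, a matrix protein of fibroblasts, had 58.4, 57.3 and 61.7 CPM in KO and 23.3, 19.1 and 16.3 CPM in het, a log2 ratio of 1.63 (SE 0.201, adjusted p 0.0634). It passed without the library block (adjusted p 0.0247), in DESeq2 (0.00606) and without library 1 (0.0185). Its molecules came from 13 of 912 KO and 8 of 681 het T cells, with up to 77 in 1 cell. All 7 tested genes of the stromal list were above 0 (median 1.12), and 10 of its 10 genes had a molecule in the T sums. The list's summed level was 258.0, 370.1 and 399.8 CPM in KO and 306.7, 229 and 110.2 CPM in het T sums. It was thus lower in KO in library 1 and higher in KO in libraries 2 and 3. Macrophage genes were also found in T sums, with C1qa in 5.92% of T cells and a summed level of the 16-gene list of 2114 to 4178 CPM in KO and 3014 to 4796 CPM in het. Of the monocyte and inflammatory myeloid list 9 of 10 tested genes were above 0 in T cells (median log2 ratio 0.54, 4 at an unadjusted p under 0.05, 0 called), and its 16 genes summed to 1661, 1178 and 2111 CPM in KO and 1378, 992.1 and 911.9 CPM in het, higher in KO within each library. The sums of marker lists are on totals without TMM scaling. The part of these cells in the T results, the Th17 list included, was not tested.

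In the B class edgeR called 8 of 7050 genes on summed molecules (0.113% of those tested), 3 higher (0.0426%) and 5 lower (0.0709%) in KO, with 353 genes at an unadjusted p under 0.05 and 3 calls by DESeq2. The cholesterol transporter Abca1 and the chemokine Ccl4 were lower in KO, as were the light chain variable genes Igkv3-12 and Igkv17-121 and the beta globin Hbb-bs. The cytokine Il1b and the interferon-induced membrane proteins Ifitm3 and Ifitm2 were higher. Ifitm3, Ifitm2 and Hbb-bs did not move the same way in all 3 libraries and are named after their values were seen. On simulated counts of this size the test found 53% of genes changed by 1 on the log2 scale and 94% of those changed by 2. That simulation, with 200 changed genes, also gave 7 false calls. The calls depend on the fit: 34 genes passed with KO and het sums alone, 13 when immunoglobulin genes were left out, 0 without the library block and 0 when cells with several markers were let into the class.

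Several of these calls rested on very few cells. Il1b, which myeloid cells make in inflammation, had 195, 209 and 9.87 CPM in KO and 28.3, 5.93 and 3.69 CPM in het, with a log2 ratio of 3.66 (SE 0.631, adjusted p 0.0199). In KO library 1, 54 of its 62 molecules lay in 1 cell, in KO library 2, 174 of 179, and in KO library 3, 2 of 5. The 3 KO values were thus 2 high and 1 low, and the low one was below that of het library 1. Lyz2, a lysozyme of macrophages and neutrophils, was also concentrated in this class, with 226 of 228 molecules of KO library 1 and 61 of 69 of het library 1 in 1 cell. Ifitm3 followed the same pattern, at 195, 82.8 and 15.8 CPM in KO and 20.6, 20.8 and 18.4 CPM in het (log2 ratio 2.26), and 43 of 62 molecules of KO library 1 and 55 of 71 of KO library 2 were in 1 cell. Ifitm2 had a log2 ratio of 2.08 and was lower in KO than in het in library 3. The share of B cells with a molecule was 2.85% in KO and 2.09% in het for Il1b, and 6.71% and 6.27% for Ifitm3.

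Hbb-bs marks red blood cells, and 510 of its 513 molecules in het B cells lay in 1 cell of library 2. Ccl4, a chemokine of activated lymphocytes and macrophages, had 12.6, 32.7 and 29.6 CPM in KO and 48.8, 91.9 and 295 CPM in het, with no overlap and a log2 ratio of -2.36 (SE 0.313, adjusted p 0.00218). Its molecules were found in 26 of 492 KO and 18 of 287 het cells, 5.29% and 6.27%, and 55 of the 80 molecules of het library 3 were in 1 cell. Igkv3-12 had a log2 ratio of -1.31 and Igkv17-121 one of -1.19. Both can be carried by clones, and 49 of 77 molecules of Igkv3-12 in het library 1 were in 1 cell. When each cell was counted at most once per gene, 1 of 6730 genes of the B class was called (0.0149%), and that gene was Abca1. This way of counting was chosen after the sums had been seen.

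**Figure D3:**
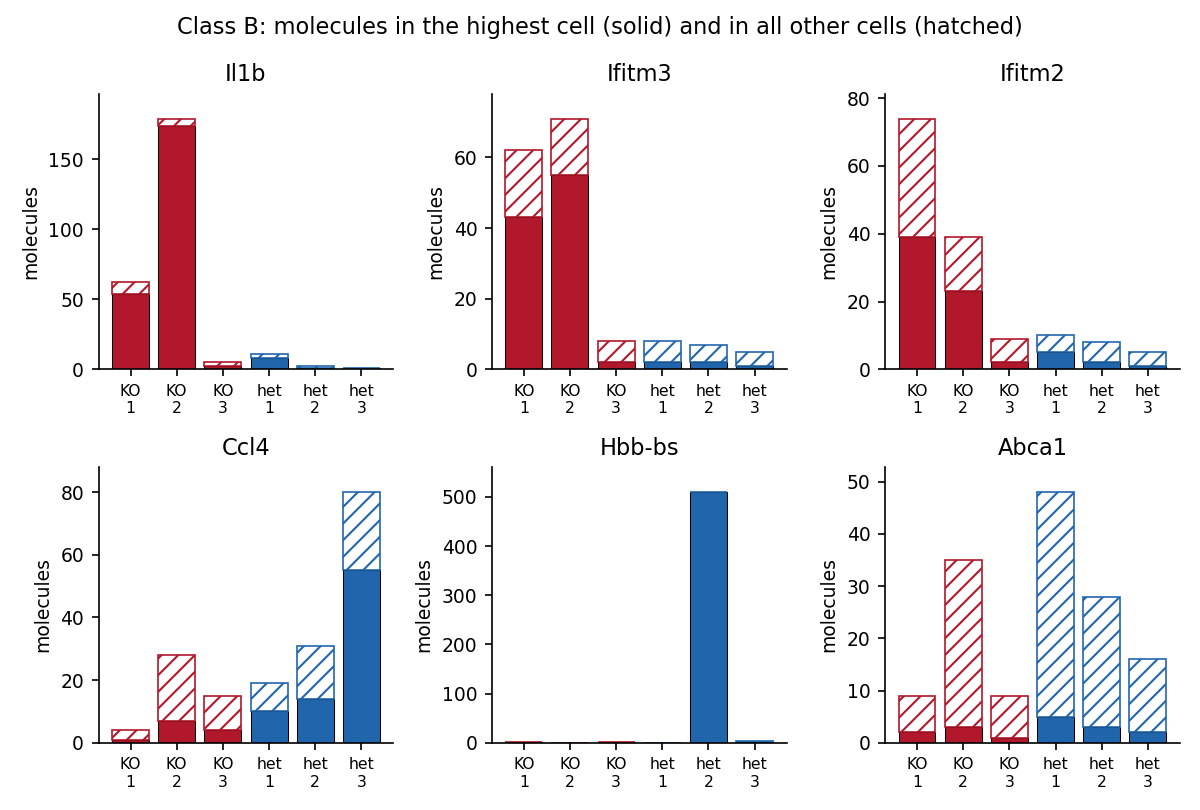
Molecules of 6 genes called in the B class (y axis, a scale per panel) in each KO and het library (x axis), split into the highest cell (solid) and all other cells (hatched). Il1b in KO libraries 1 and 2 and Hbb-bs in het library 2 lie almost wholly in 1 cell, whereas the molecules of Abca1 are spread over many cells.

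Abca1 was lower in KO B cells over many cells rather than a few. The gene encodes the membrane pump that passes cholesterol and phospholipid to apolipoproteins, and it lies on chromosome 4 from 53030789 to 53159988 (GRCm38.p6). KO libraries had 28.4, 40.8 and 17.8 CPM, het libraries 123, 83.0 and 59.0 CPM and WT libraries 148, 97.4 and 92.7 CPM. The KO values lay below all het and WT values, while het and WT overlapped. The log2 ratio of KO to het was -1.45 (SE 0.272, adjusted p 0.0382). A molecule was found in 9.41%, 11.7% and 5.62% of KO B cells, 27.2%, 23.9% and 17.3% of het B cells and 34.2%, 28.0% and 24.4% of WT B cells, that is in 46 of 492, 67 of 287 and 202 of 707 cells, with at most 5 molecules in a cell. Thinned to 1000 molecules per cell, the shares were 1.18%, 4.05% and 3.12% in KO and 9.65%, 7.61% and 6.17% in het, again with no overlap. T cells, where the gene is not a marker, held a molecule in 5.26% of KO and 5.29% of het cells at medians of 4870 and 5000 molecules, against medians of 3262 and 3402 in the B class. Counting each cell once, the log2 ratio was -1.22 with an adjusted p of 0.0429.

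The neighbouring class showed the same direction in other cells. Cells with Ms4a1 and Mzb1 had 40.6, 28.4 and 22.3 CPM of Abca1 in KO and 62.3, 49.2 and 72.4 CPM in het, with no overlap. Their log2 ratio of -1.05 (SE 0.236) did not pass on summed molecules (adjusted p 0.568). Counting each cell once it did, at -0.96 with an adjusted p of 0.00876, as 1 of 5 genes called there of 8911 tested (0.0561%). The shares of these cells with a molecule were 15.4%, 11.5% and 8.87% in KO, 25.7%, 20.4% and 24.0% in het and 34.4%, 33.3% and 22.4% in WT. Both sets of cells come from the same mice and are not independent replicates. Other classes gave no call: the log2 ratio was -0.07 in T cells, -0.93 in Mzb1 cells (adjusted p 0.53), 0.13 in other cells and -0.38 over all gated cells (adjusted p 0.807). The differences of Abca1 between the T, B, Mzb1 and other classes did not pass the test of an interaction, which called 1 of 9197 genes (0.0109%). Abca1 had an unadjusted p of 0.0389 and an adjusted p of 0.587 there, so the response of the B class is not shown to differ from that of the others.

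The B class call of Abca1 did not hold under every setting. Its adjusted p was 0.488 without the library block, 0.225 in DESeq2, 0.616 with overlapping classes, 0.192 without library 1 and 0.122 without library 3, with log2 ratios of -1.55, -1.53, -0.82, -1.21 and -1.4, while with KO and het sums alone it was 2.91e-05. KO and het B cells also differ in how pure their hashtag counts are, as given above, and the part of this in the result was not tested.

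The promoter of Abca1 is shown because the gene is a known target of the liver X receptors, nuclear receptors that sense oxysterols and bind a direct repeat as a dimer with the retinoid X receptor. The 250 bases before the start that the RefSeq promoter table lists (GRCm38.p6, chr4:53159896-53160145, minus strand) hold 1 match to GGTNA, any 5 bases and GGTCA, searched on both strands and given in capitals, which starts 67 bases before that start. The listed start lies inside the gene interval given above, whose outer end is further upstream, so the window and the match overlap that interval.
Abca1: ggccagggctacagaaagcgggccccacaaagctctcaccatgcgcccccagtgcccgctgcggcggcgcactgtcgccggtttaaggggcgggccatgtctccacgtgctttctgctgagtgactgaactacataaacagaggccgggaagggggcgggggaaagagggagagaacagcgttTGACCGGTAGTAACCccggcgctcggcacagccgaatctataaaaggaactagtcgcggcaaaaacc
This motif was chosen after Abca1 had been singled out. Of 32851 RefSeq promoter windows of the same length 58 (0.177%) hold it, so it is rare, and the match is a description of the letters only.

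**Figure D4:**
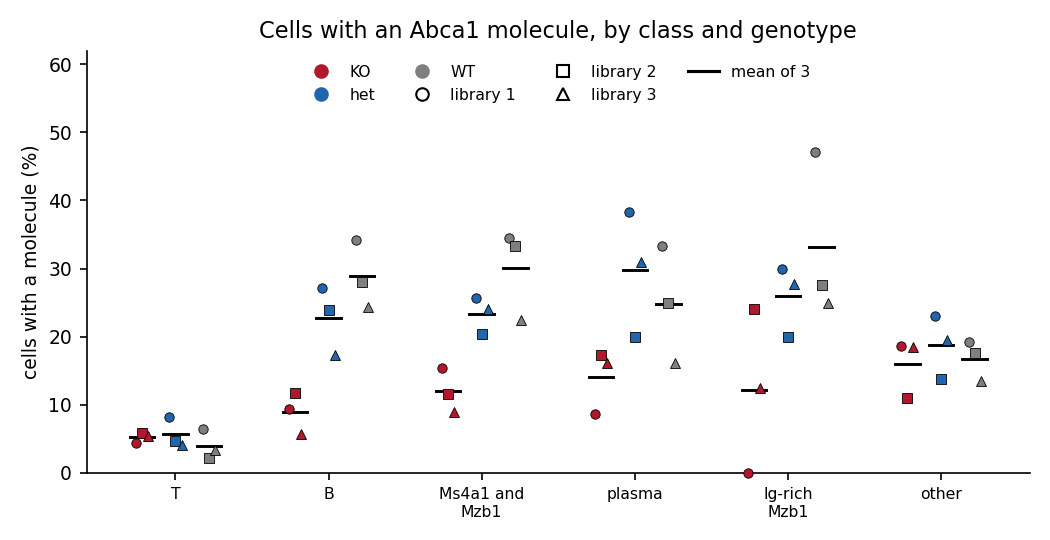
Share of cells with an Abca1 molecule (%, y axis) in 6 classes (x axis), 1 point per genotype and library with a bar at the mean of 3. In the B class and in cells with Ms4a1 and Mzb1 every KO point (5.62% to 15.4%) is below every het point (17.3% to 27.2%), and in T cells the genotypes overlap.

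The lists of B cell genes gave no call in the B class beyond those named. Of the 20 genes of the B cell receptor and B cell identity, all tested in the B class, 0 were called and 12 were above 0 (median log2 ratio 0.05, beside 51.1% above 0 over all genes). Of the 11 tested interferon-stimulated genes 2 were above 0 (median -0.33), and of the 10 MHC class II genes 2 were above 0 (median -0.09), 0 of them called in either direction.

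Cells with Ms4a1 and Mzb1 had 0 of 9204 genes called by edgeR on summed molecules, with 647 at an unadjusted p under 0.05 and 3 called by DESeq2. Cell cycle genes leaned to KO, with 17 of 20 above 0, 7 of them at an unadjusted p under 0.05 and a median log2 ratio of 0.51, beside 49.6% above 0 over all genes. Mcm5, a subunit of the replicative helicase, had 48.7, 57.3 and 52.6 CPM in KO and 15.9, 29.7 and 18.6 CPM in het, with no overlap (log2 ratio 1.28, SE 0.25, adjusted p 0.568). Tyms, which makes thymidylate for DNA synthesis, was higher in KO in 3 of 3 libraries (log2 ratio 1.21). Mki67, the proliferation marker, had 52.7, 142 and 82.0 CPM in KO and 42.0, 151 and 65.0 CPM in het, and overlapped. After thinning, a Mki67 molecule was found in 3.20% ± 0.924 of KO, 2.32% ± 1.42 of het and 5.08% ± 0.303 of WT cells. Lig1, a ligase of DNA replication, had 46.0, 44.8 and 37.4 CPM in KO and 20.3, 14.9 and 22.3 CPM in het. Its WT libraries had 44.0, 44.4 and 61.9 CPM. For Lig1 and the Mki67 share, KO was thus above het on average but not above WT. Within libraries 1 and 2, Lig1 was slightly higher in KO than in WT.

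Counting each cell once in the same cells, 5 genes were called: Abca1, Mid1, Hspa1b and the long noncoding RNAs Gm42031 and Gm4316. Mid1, a microtubule-associated ubiquitin ligase, was found in 4.41%, 1.68% and 3.23% of KO and 12.1%, 3.82% and 12.0% of het cells, so that het library 2 lay among the KO values. The WT libraries had it in 7.19%, 14.0% and 5.33%. Hspa1b, an inducible heat shock protein, was found in 49.3%, 42.1% and 35.9% of KO and 16.4%, 43.9% and 14.0% of het cells, and in library 2 the genotypes were alike. WT libraries, at 40.1%, 45.8% and 33.3%, lay near the KO values, so that het libraries 1 and 3 stood apart from both. Thinned, Mid1 was in 0.5% of KO and 1.76% of het cells, a few cells in each, and Hspa1b in 23.6% and 14.9%.

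The same count called 2 of 10152 genes in T cells (0.0197%), both lower in KO. Gm7030, a gene model in the MHC region where near-identical class I genes can share reads, was found in 22.8%, 32.4% and 29.7% of KO and 27.1%, 53.6% and 48.0% of het T cells (log2 ratio -0.63, adjusted p 0.000975). KO and het values overlapped, and the WT libraries, at 29.0%, 41.9% and 29.9%, lay between or beside them. Mgst2, a microsomal glutathione transferase that also makes leukotriene, was found in 11.2%, 20.8% and 8.29% of KO and 28.8%, 28.1% and 16.6% of het T cells (log2 ratio -0.81, adjusted p 0.0336), lower in KO within each library. Thinned, the shares were 6.80% and 12.3% for Gm7030 and 3.51% and 4.26% for Mgst2.

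Mzb1 cells without Ms4a1 and Cd3e gave 1 call of 6209 genes (0.0161%), Nkg7, a granule protein of cytotoxic lymphocytes. It had 16.5, 1.66 and 22.4 CPM in KO and 83.4, 11.4 and 86.2 CPM in het (log2 ratio -2.27, SE 0.231, adjusted p 0.0236). KO was lower within each library but the groups overlapped, and its molecules came from 8 of 208 KO and 9 of 137 het cells. The call was lost without the library block (adjusted p 0.436), with KO and het sums alone (0.162), with overlapping classes (0.519) and without library 1 (0.48), 2 (0.339) or 3 (0.11), and counting each cell once left 0 calls in this class. Unadjusted p was under 0.05 for 675 genes, and DESeq2 called 32. On simulated counts of this size the test found 10% of genes changed by 1 on the log2 scale and 76% of those changed by 2. It made 2 false calls on them. Of the cell cycle list 16 of 16 tested genes were above 0 (median log2 ratio 1.23), of the MHC class II list 0 of 10 (median -0.79) and of the macrophage list 0 of 10 (median -1.65), beside 51.5% above 0 over all genes, with 0 of these called. The make-up of the class differed between the genotypes in each library: immunoglobulin-rich cells were 18 of 46, 25 of 75 and 32 of 87 in KO and 10 of 47, 10 of 35 and 18 of 55 in het, and their part in these lists was not tested. The macrophage list summed to 321.0 to 1593 CPM in the KO and 1651 to 4160 CPM in the het sums of this class. In WT it summed to 528.7, 741.6 and 1397 CPM, within the KO range, so that the het sums stood apart. C1qa had 14.1, 68.0 and 151 CPM in KO and 265, 114 and 238 CPM in het. The part of cells with macrophage genes in the class's results was not tested.

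The 171 immunoglobulin-rich cells, 75 KO, 38 het and 58 WT, had 0 of 2857 genes called by edgeR, with 249 at an unadjusted p under 0.05 and 11 called by DESeq2. Igha, the IgA heavy chain, had a log2 ratio of 0.30 with an SE of 3.41, so its level was not resolved. Of the 20 genes of the secretory pathway 17 were above 0 (median 0.24), and of the immunoglobulin constant genes 9 of 10 (median 0.45), beside 52.3% over all genes. H2-Eb1, an MHC class II chain that plasma cells lose, had 225, 198 and 339 CPM in KO and 1240, 650 and 541 CPM in het (log2 ratio -1.56, adjusted p 0.521). St6gal1, the main sialyltransferase of B lineage cells, had 269, 228 and 189 CPM in KO and 156, 178 and 139 CPM in het, with no overlap and a log2 ratio of 0.52 (adjusted p 0.501).

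Cells with no class marker had 0 of 7747 genes called by edgeR or DESeq2, with 258 at an unadjusted p under 0.05. On simulated counts the test found 20% of genes changed by 1 on the log2 scale and 85% of those changed by 2 in this class. It made 8 false calls on them. Genes of mast cells and type 2 responses leaned to het, with 2 of 10 above 0 and a median log2 ratio of -1.46. The list summed to 343.5, 1300 and 784.1 CPM in KO and 3921, 5489 and 9345 CPM in het. In WT it summed to 3731, 5226 and 266.9 CPM, so that WT library 3 lay below all KO libraries. Mcpt1, a protease of mucosal mast cells, had 3.83, 565 and 262 CPM in KO and 2360, 4160 and 4170 CPM in het, with no overlap (log2 ratio -4.01, SE 1.39, adjusted p 1). Its molecules lay in 17 of 401 KO and 14 of 215 het cells, 251 of 491 KO and 1220 of 3323 het molecules being in 1 cell. Over all genotypes a Mcpt1 molecule was found in 5.20% of these cells, and also in 5.00% of T and 5.11% of B cells. The numbers of cells with a molecule therefore do not count mast cells. Fcer1a, a chain of the IgE receptor, was found in 3 KO and 4 het cells. Fewer mast cells and less RNA per mast cell cannot be told apart in these sums. Il1b had 3200, 1080 and 1780 CPM in KO and 515, 1070 and 2100 CPM in het, and overlapped.

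Over all gated cells 0 of 13144 genes passed edgeR's test, with 794 at an unadjusted p under 0.05 and 18 called by DESeq2. On simulated counts the test found 55% of genes changed by 1 on the log2 scale and 93% of those changed by 2. It made 1 false call on them. Without library 2, edgeR called 7 genes. When each cell was counted once per gene, 2 of 12640 genes were called (0.0158%), Gm42031 and Gm4316, both higher in KO and both annotated as long noncoding RNAs of unstated function on chromosome 8. DESeq2 called both on summed molecules.

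Gm42031, from 85125923 to 85131814, had 107, 153 and 59.5 CPM in KO, 41.6, 45.3 and 36.5 CPM in het and 42.9, 59.2 and 42.2 CPM in WT. KO lay above het and above WT in each library. All 3 KO values were above all 6 others, but KO library 3 was barely above WT library 2 (59.5 against 59.2 CPM). On summed molecules the log2 ratio was 1.29 (SE 0.191, adjusted p 0.451). A molecule was found in 32.2%, 40.3% and 22.2% of KO, 18.4%, 18.2% and 16.1% of het and 20.3%, 24.99% and 18.3% of WT cells. Every KO value was above every het value on this count, but KO library 3 lay below WT library 2. Counting cells, the log2 ratio of KO to het was 0.89 (adjusted p 0.0019). Thinned, the shares were 9.86% in KO, 3.74% in het and 4.98% in WT. By class, the gene's molecules were found in 14.04% of KO and 7.64% of het T cells, 38.01% and 21.95% of B cells, 46.15% and 24.09% of Mzb1 cells and 25.94% and 14.88% of other cells. These shares pool the libraries. In library 3 a molecule was found in 23.8% of KO and 24.7% of het B cells. Cells with Ms4a1 and Mzb1 had 32.3% and 30% there. In libraries 1 and 2 KO was above het in both sets of cells. On summed molecules of library 3, the gene had 90.8 CPM in KO and 81.2 CPM in het B cells. In cells with Ms4a1 and Mzb1 of that library it had 91.6 CPM in KO and 92.8 CPM in het. Its log2 ratio on summed molecules was 1.47 in T, 0.94 in B, 1.62 in Mzb1 and 1.4 in other cells, with adjusted p of 0.556, 0.244, 0.153 and 1.

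Gm4316, from 123172562 to 123178767, was rarer. A molecule was found in 6.45%, 11.0% and 8.98% of KO, 2.28%, 2.70% and 3.62% of het and 5.08%, 5.90% and 5.87% of WT cells. KO was above both other genotypes, and here WT lay above het. The log2 ratio was 1.68 counting cells (adjusted p 0.00146) and 2.47 on summed molecules (SE 0.248, adjusted p 0.234), where KO had 18.0, 43.9 and 29.6 CPM and het 4.14, 4.79 and 7.06 CPM. Its molecules were most frequent in the immunoglobulin-rich Mzb1 cells, in 61.33% of the 75 KO, 26.32% of the 38 het and 27.59% of the 58 WT cells. These shares are not thinned, and the cells had a median of 20370 molecules, against 4484 in cells with Ms4a1 and Mzb1. Mean CPM was 102 in KO, 20.8 in het and 24.7 in WT in the immunoglobulin-rich cells. In cells with Ms4a1 and Mzb1 it was 47.8, 9.27 and 24.7, the same for WT. The gene model Gm46620 came close without passing, at 10.8%, 11.0% and 9.89% of KO and 4.56%, 7.25% and 5.50% of het cells (adjusted p 0.0591 counting cells).

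**Figure D5:**
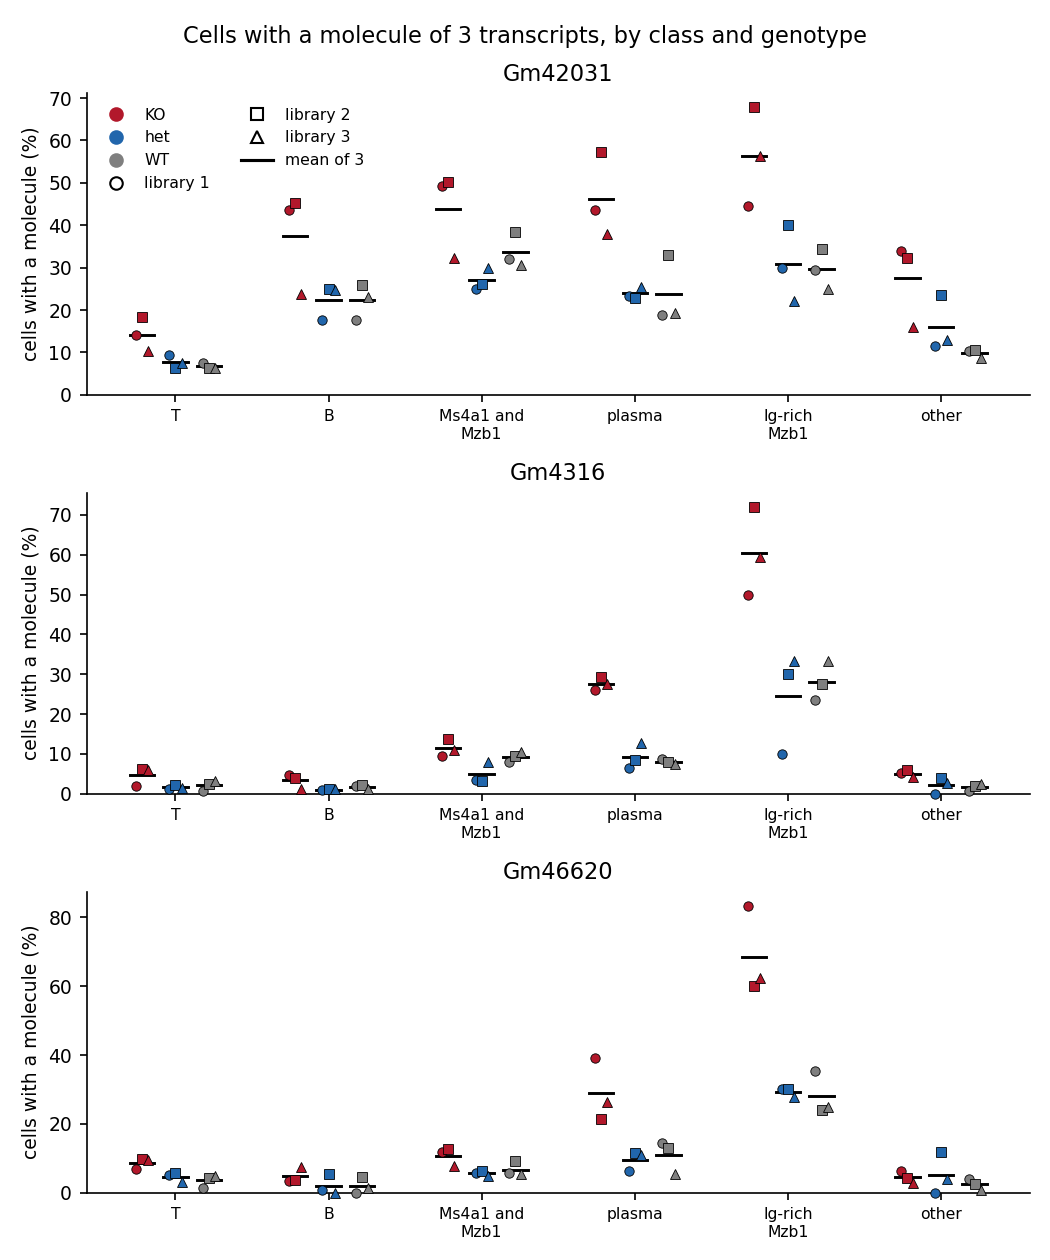
Share of cells with a molecule (%, y axis) of Gm42031, Gm4316 and Gm46620 (1 panel each) in 6 classes (x axis), 1 point per genotype and library with a bar at the mean of 3. Gm4316 is most frequent in the immunoglobulin-rich Mzb1 cells, and the KO mean of Gm42031 is above the het mean in each class. Shares are not thinned, and the immunoglobulin-rich cells hold more molecules per cell than the other classes.

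The rest of the sialic acid machinery did not differ detectably over all gated cells. Of 20 sialyltransferases 15 were tested, 0 were called by edgeR in either direction, 0 had an unadjusted p under 0.05, and 12 were above 0 with a median log2 ratio of 0.13, beside 51.4% and 0.0051 over all genes. St6gal1 had 70.1, 109 and 81.1 CPM in KO and 83.0, 76.7 and 68.9 CPM in het (log2 ratio 0.16, SE 0.135). St3gal1, which caps core O-glycans, had 59.0, 65.4 and 69.1 CPM against 46.6, 61.5 and 57.0 CPM (log2 ratio 0.23, SE 0.113). St8sia4, a polysialyltransferase, had 155, 177 and 165 CPM against 156, 171 and 160 CPM (log2 ratio 0.03, SE 0.0851). Among genes that make, activate or remove sialic acid, 12 of 14 were tested, 0 were called and 8 were above 0 (median 0.05). Cmas, which activates sialic acid, had a log2 ratio of -0.03 (SE 0.0726) and Cmah, which hydroxylates it, one of 0.05 (SE 0.114).

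Of the Siglecs 5 of 9 were tested and 0 were called. Cd22, the inhibitory Siglec of B cells, had 57.8, 96.8 and 55.0 CPM in KO and 54.6, 77.5 and 45.5 CPM in het (log2 ratio 0.23, SE 0.0958, adjusted p 0.807). Siglece, the Siglec of neutrophils and macrophages, had 6.91, 3.37 and 7.28 CPM in KO and 4.69, 2.66 and 3.65 CPM in het, higher in KO within each library at very low levels (log2 ratio 0.64, SE 0.227, adjusted p 0.807). Inflammatory monocyte genes were above 0 for 14 of 14 tested, with a median of 0.57, 4 of them at an unadjusted p under 0.05 and 0 called. Il1b of this list had 760, 307 and 704 CPM in KO and 311, 270 and 409 CPM in het over all gated cells (log2 ratio 0.71, SE 0.242, adjusted p 0.807), so that KO library 2 lay among the het values.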

How the data were processed

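The colon matrices hold counts of unique molecules per gene and cell, deposited by the authors as merged matrices of 3 libraries, with hashtag counts in a second matrix. Cell Ranger, Seurat and the mm10 build are named per the submitters' processing notes, with versions not given in the sources used here. Genotype was read from the hashtag with the highest median per barcode ending, and libraries from the endings, since the labels do not give them. Molecules were summed per genotype, library and class (at least 10 cells per sum) and compared with edgeR 4.0.16 (quasi-likelihood F test, TMM, filterByExpr, genotype and library as terms, WT in the fit) in R 4.3.3, at a Benjamini-Hochberg adjusted p under 0.05 over all genes tested. CPM use TMM-scaled totals. Class shares and shares of cells with a marker used the same test on numbers of cells, after thinning to 1000 molecules for markers. DESeq2 1.42.0 was an alternative. The script was tested on simulated counts with 200 changed genes.

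All 3 genotypes of a run were pooled before capture, per the labels' protocols, so library is a block that pairs them, and each run used other mice. The interaction test treats the 4 class sums of a mouse as independent. Genes named are those called with the largest change in the same direction in 3 of 3 libraries, at most 2 variable genes, the 5 of smallest p where fewer than 3 were called, called members of the 31 gene lists, and St8sia6. The members and lists were chosen with earlier results of these data known. Chosen after values were seen were Gm42031, Gm4316, Gm46620, Abca1 outside the B class, the list members given as examples, counting each cell once per gene, the cells with Ms4a1 and Mzb1, the 20% immunoglobulin threshold (19 cells lay between 10% and 30%) and the promoter motif. No doublet caller was run and free RNA was not removed. Of 32285 gene symbols 26296 matched RefSeq (GRCm38.p6), which gave positions and promoters. Counting intervals were not used, and molecule numbers limit rare genes.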

Additional observations from a re-analysis of the deposited data

Results flagged for a closer look

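A test of the interaction over the T, B, Mzb1 and other classes called 1 of 9197 genes, Ighv1-63, a heavy chain variable gene (edgeR's quasi-likelihood test, adjusted p 0.0129, 0.0109% called, 716 genes at an unadjusted p under 0.05). The test treats the class sums of a mouse as independent, and Ighv1-63 passed the filter on low counts in none of the 4 classes alone. Its molecules in Mzb1 cells numbered 0, 3560 and 3711 in KO and 0, 0 and 3 in het. In KO library 2 all 3560 lay in 1 cell and in KO library 3 3706 lay in 1 cell, so that the call rests on 2 cells and shows no difference between the classes as such. In T cells the gene had 2, 4 and 13 molecules in KO and 0, 1 and 9 in het. Over all gated cells it had 4.69, 484 and 582 CPM in KO, 0.276, 1.86 and 8.52 CPM in het and 514, 1.83 and 7.66 CPM in WT, and the log2 ratio of KO to het, 7.05 with an SE of 2.71, did not pass (adjusted p 0.807).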

How the results depend on the processing

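The number of called genes was 0 over all gated cells, 0 in T, 8 in B, 1 in Mzb1 and 0 in other cells. Without the replicate block, which pairs the genotypes of a library, it was 1 in T, 0 in B and 0 in Mzb1 cells, and the test between classes called 8 genes in place of 1. The block changed no call over all gated cells or in other cells. With KO and het sums alone 4 genes were called over all cells, 34 in B and 0 in Mzb1 cells, and with DESeq2 18 over all cells, 2 in T, 3 in B and 32 in Mzb1 cells. Without the filter on low counts there were 2 in T, 3 in Mzb1 and 6 in other cells, and 23 between classes. Leaving out immunoglobulin genes gave 1 over all cells, 13 in B and 9 in Mzb1 cells. Overlapping classes gave 2 in T, 0 in B and 0 in Mzb1 cells. Counting each cell once gave 2 over all cells, 2 in T, 1 in B and 0 in Mzb1 cells, cells with Ms4a1 and Mzb1 gave 0 and immunoglobulin-rich cells 0; these 3 settings were chosen after seeing the data. Keeping only cells with at least 80% of their own hashtag, which removes most KO cells of the B class, gave 158 genes over all cells, 5 in T and 0 in Mzb1 cells and 1 marker share. The B class was not run there, since its KO sums fell under 10 cells. Under that setting the log2 ratio of class shares was 0.654 for T, -3.59 for B, -0.849 for Mzb1 and -0.678 for mixed cells, and the Mzb1 share was 0.0935 with overlapping classes and 0.0263 after thinning. Leaving out 1 library in turn gave 1 to 7 genes over all cells (7 without library 2), 1 to 14 in T (14 without library 1), 12 to 15 in B, 0 to 2 in Mzb1 cells (0 without library 1 or 2), 0 to 3 in other cells (3 without library 2), 3 to 5 between classes and 0 to 2 marker shares. Shares then ran from -0.484 to 0.0148 for T, -0.114 to 0.317 for B, -0.0777 to 0.00324 for Mzb1, -0.0395 to 0.223 for mixed and 0.177 to 0.398 for other cells. Single genes whose sign turned were all ones that had not been called, except Ccl4 and Igkv17-121 of the B class in cells with Ms4a1 and Mzb1, at 0.391 and 0.223. With at least 80% of the own hashtag, Igkv4-63 was at -0.448, St8sia6 at -0.232 and Abca1 at 0.0097 over all cells, and Abca1 in T at 0.275. Abca1 in T was at 0.0953 with overlapping classes and 0.00478 counting cells, Abca1 in other cells at -0.136 and -0.29, and St8sia6 in Mzb1 cells at -0.259 with overlapping classes. Leaving out 1 library gave -0.304 to 0.289 for Abca1 in T, -0.161 to 0.5 for Abca1 in other cells, -0.228 to 0.393 for St8sia6 over all cells and -0.0367 to 0.801 in Mzb1 cells. Among T marker shares, Cd8b1 was at 0.00105 with the own hashtag highest and 0.133 unthinned, Trdc at 0.109 and Gzma at 0.0386 with at least 80% of the own hashtag, and Ifng at -0.0507 unthinned; leaving out 1 library gave -0.223 to 0.379 for Cd8b1, -0.556 to 0.0409 for Gzma, -0.251 to 0.213 for Ifng and -1.13 to 0.312 for Klrb1c. Size factors of DESeq2 in edgeR, cells whose own hashtag was highest and cells from 300 molecules changed no count of calls by over 1.5 times. The cause of these shifts was not tested.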
